A study of Mus musculus with 8 samples.

Results

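The genes described here are 10 CC chemokine ligands of the mouse: the eotaxins Ccl11 and Ccl24, the monocyte attractants Ccl2, Ccl7 and Ccl12, and Ccl8, Ccl17, Ccl19, Ccl20 and Ccl27a. They were chosen by gene symbol in a catalogue of CAGE clusters. CAGE reads the 5′ ends of capped RNA, and a cluster is a short stretch of genome where such ends pile up, that is, a transcription start region. A cluster of its own was listed for 9 of the 10 genes, among 16094 gene symbols in the catalogue. These 9 genes held 12 of the 84475 clusters. Ccl19 had none.

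The catalogue was made from the facial skin of 8 mice of the C57BL/6 strain, aged 28 days. Lesional skin was taken from 4 mice that carried the Cre transgene and both Ikk2 alleles floxed, and non-lesional skin from 4 control mice. The series text gives the Cre driver as Nestin-cre and the sample labels give Nectin-cre, and the exact genotype of the controls is not given in the sources used here. Ikk2 (gene symbol Ikbkb) is a kinase of the pathway that activates NF-κB. The design sets lesional skin against control skin, and genotype and lesion change together in it. No label ties the 8 columns of values to a mouse, so the values were not used, and neither a level nor a difference between the groups is given for any gene. The clusters describe the skin of both groups together.

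CC chemokines are small secreted proteins named for a pair of adjacent cysteines. They bind receptors with several membrane-spanning segments on leukocytes and draw those cells along a gradient into tissue. In skin they are made by keratinocytes, fibroblasts, endothelium, macrophages and dendritic cells, and different ligands recruit different cells. CCL11 and CCL24 act through CCR3 on eosinophils. CCL2, CCL7 and CCL12 act through CCR2 on monocytes. Mouse CCL8 acts through CCR8, CCL17 through CCR4 on T cells, CCL20 through CCR6 and CCL27 through CCR10 on T cells that home to skin. CCL19 acts through CCR7 and guides dendritic and T cells in lymph nodes. Several of these genes are known targets of NF-κB in other settings.

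The sequences just before the annotated gene starts are shown first, since the start of transcription is what CAGE reads. RefSeq promoters of build GRCm38.p6 were matched by symbol for 6 of the 10 genes, with 1 promoter each for Ccl8, Ccl12, Ccl17, Ccl19 and Ccl20 and 3 for Ccl27a. Each line gives the bases from -60 to -1 relative to the annotated start, 5′ to 3′ on the strand of the gene, and capitals mark a TATA box (TATAAA, searched on both strands).
Ccl8, chr11:82115125-82115184, plus strand: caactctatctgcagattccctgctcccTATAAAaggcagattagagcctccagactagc
Ccl12, chr11:82101785-82101844, plus strand: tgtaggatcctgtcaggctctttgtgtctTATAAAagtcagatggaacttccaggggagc
Ccl17, chr8:94810393-94810452, plus strand: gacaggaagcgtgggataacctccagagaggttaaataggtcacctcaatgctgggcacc
Ccl20, chr1:83116706-83116765, plus strand: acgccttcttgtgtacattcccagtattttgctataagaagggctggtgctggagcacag
Ccl27a, promoter 1 (downstream), chr4:41770213-41770272, minus strand: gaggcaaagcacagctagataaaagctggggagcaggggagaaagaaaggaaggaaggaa
Ccl27a, promoter 2 (middle), chr4:41774102-41774161, minus strand: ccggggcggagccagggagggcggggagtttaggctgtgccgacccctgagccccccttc
Ccl27a, promoter 3 (farthest upstream), chr4:41774177-41774236, minus strand: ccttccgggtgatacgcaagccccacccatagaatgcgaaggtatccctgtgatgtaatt
Ccl19, chr4:42756366-42756425, minus strand: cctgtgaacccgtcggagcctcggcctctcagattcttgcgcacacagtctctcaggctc

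The neighbouring genes Ccl8 and Ccl12 shared a TATA box in nearly the same place, from -32 to -27 in Ccl8 and from -31 to -26 in Ccl12. Only the exact letters TATAAA were searched, and variants of the box were not. The exact box was found within 250 bases before the start in 2 of the 8 member promoters, against 12.4% of all 32817 promoters in the table. The same 2 promoters held 1 CpG each in those 250 bases, where the median over all promoters was 6. Their G+C content was 44.8% for Ccl8 and 48.4% for Ccl12, against a median of 52.4% over all promoters. Of the Ccl27a promoters, the downstream promoter 1 held 4 CpG at a G+C content of 52.0%, promoter 2 held 12 at 53.2%, and promoter 3, which overlaps it, held 6 at 46.8%. Promoter 2 had no match to any of the 6 motifs searched. Here middle gives the order of promoter 2 among the printed promoters, not a place at the middle cluster described below. The promoter of Ccl19, the gene without a cluster, held 9 CpG at a G+C content of 58.4%.

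Between -160 and -61, motif matches were found in 3 genes, and these stretches are printed with the matches in capitals.
Ccl20, chr1:83116606-83116705, plus strand, NF-κB consensus: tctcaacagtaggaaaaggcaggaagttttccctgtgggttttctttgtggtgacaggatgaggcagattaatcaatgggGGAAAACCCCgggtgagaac
Ccl17, chr8:94810293-94810392, plus strand, STAT6-type site, then GAS site: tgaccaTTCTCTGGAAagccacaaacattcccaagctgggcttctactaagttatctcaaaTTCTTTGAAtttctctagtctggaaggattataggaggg
Ccl27a, promoter 1 (downstream), chr4:41770273-41770372, minus strand, CCAAT box on the opposite strand, then AP-1 site: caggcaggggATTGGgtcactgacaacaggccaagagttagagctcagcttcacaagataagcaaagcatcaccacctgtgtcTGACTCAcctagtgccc

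Ccl20 held the only match to the NF-κB consensus among the 8 member promoters, from -80 to -71 on the strand opposite to the gene. Ccl2, Ccl7, Ccl11 and Ccl24 had no promoter sequence and were not searched. Only GGGRNNYYCC (R for A or G, Y for C or T, N for any base) was searched, and variants of it were not. The consensus occurred in 7.25% of all promoters. Ccl17 held a STAT6-type site (TTC and GAA with 4 bases between) from -154 to -145 and a GAS site (TTCNNNGAA, the general STAT motif) from -99 to -91, which occurred in 5.85% and 7.01% of all promoters. The AP-1 site (TGANTCA) of Ccl27a promoter 1 lay from -77 to -71, and 6.75% of all promoters held one. CCAAT was found in promoters 1 and 3 of Ccl27a, from -150 to -146 and from -245 to -241, in the promoter of Ccl19, from -185 to -181, and in 33.8% of all promoters. All motifs were searched on both strands over the 250 bases before the start, and the matches named here do not overlap. A match is a stretch of letters, and binding was not measured.

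**Figure D1:**
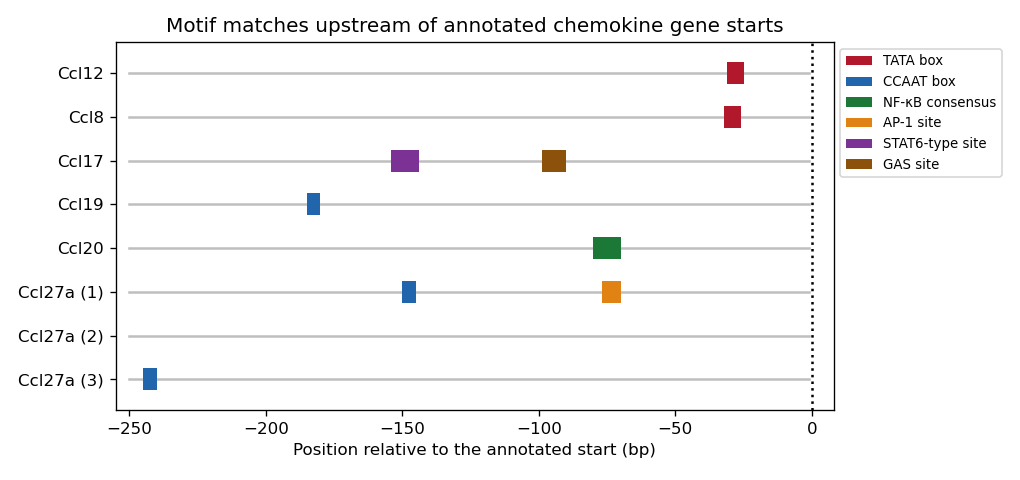
Motif matches in the 250 bases before each annotated start, one line per promoter, with position relative to the start in bp and colour giving the motif. The TATA boxes of Ccl12 and Ccl8 stand between -32 and -26, the NF-κB match of Ccl20 between -80 and -71, and Ccl27a (2) has no match.

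Of the eotaxin genes, Ccl11 had the widest start region among the members and Ccl24 a narrower one. Ccl11 had a single cluster, chromosome 11 plus strand, 81871274 to 81871430 (mm9, as deposited), with a span of 156 bp. This was the widest of the 12 clusters, and 73.3% of the 16094 named genes had a narrower widest cluster. Ccl24, the other eotaxin, had a single cluster, chromosome 5 minus strand, 136048877 to 136048934. Its span of 57 bp was above that of 21.0% of named genes. Both eotaxins therefore had 1 start region each, without a second cluster elsewhere in the gene.

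The monocyte attractants acting on CCR2 had narrow clusters. Ccl2, the best known of them (also called MCP-1), had 1 cluster of 14 bp, chromosome 11 plus strand, 81849074 to 81849088, wider than the widest cluster of 10.5% of named genes. Ccl7 had 1 cluster of 7 bp there, 81859212 to 81859219. Ccl12 had 2 clusters 16 bp apart, of 2 bp from 81915324 to 81915326 and of 5 bp from 81915342 to 81915347. Joining them would give Ccl12 a single start region. The widest clusters of Ccl7 and Ccl12 exceeded those of 7.18% and 5.44% of named genes.

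Ccl8, which lies at the end of the same array, had a cluster unlike its CCR2-binding neighbours in width. It ran from 81928607 to 81928698 on the plus strand, a span of 91 bp, against 5 bp for the wider cluster of the adjacent Ccl12. Among named genes, 38.7% had a narrower widest cluster.

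The other 4 genes had narrow clusters, several clusters or none. Ccl17, chromosome 8 plus strand, had a single cluster of 2 bp, 97334351 to 97334353, the smallest span found in the catalogue. A widest cluster of 2 bp was found for 2.44% of named genes. Ccl20, an epithelial attractant of cells with CCR6, had a single cluster of 8 bp, chromosome 1 plus strand, 83113340 to 83113348. Ccl27a, made by keratinocytes, had the most clusters, with 3 on the minus strand of chromosome 4: 12 bp from 41717089 to 41717101, 32 bp from 41720398 to 41720430 and 48 bp from 41721002 to 41721050.

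**Figure D2:**
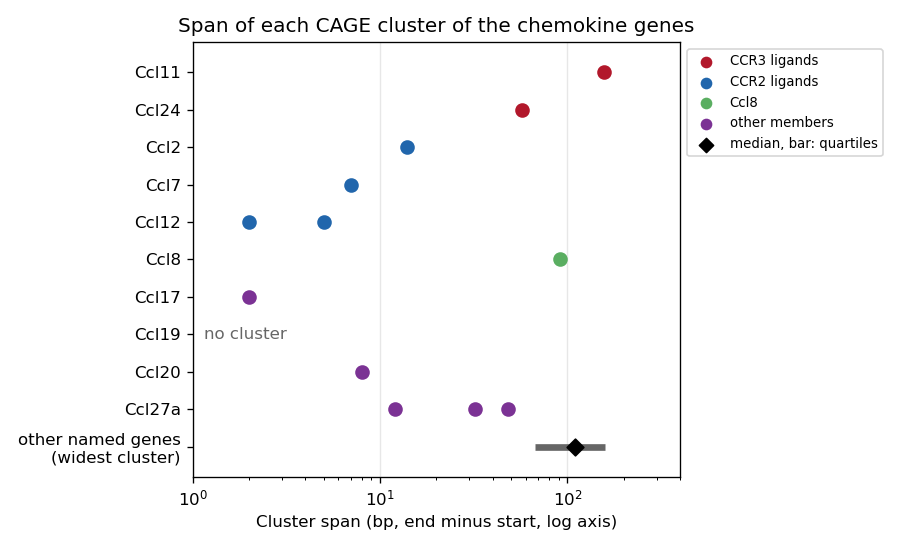
Span in bp of each of the 12 clusters on a log axis, with genes down the page and colour giving the receptor group; the diamond and bar give the median and quartiles of the widest cluster of other named genes. Ccl11 at 156 bp and Ccl8 at 91 bp reach the range of 67 to 159 bp of the other genes, and the remaining clusters lie below it.

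Set against the whole catalogue, the share of chemokine genes listed depended on the span required, and their clusters were mostly narrow. A cluster was listed for 9 of the 10 (90.0%), against 63.3% of the 21890 other protein-coding genes of the RefSeq table. With clusters of at least 5 bp, 8 of the 10 remained, and the share of other genes at that span was not computed. With clusters of at least 10 bp, 5 of the 10 remained, against 59.9% of other protein-coding genes. The 5 were Ccl11, Ccl24, Ccl8, Ccl2 and Ccl27a. The median of the widest cluster was 14 bp over the 9 chemokine genes and 110 bp over the 16085 other named genes, whose quartiles were 67 and 159 bp. A single cluster was listed for 7 of the 9 genes, and for 45.7% of other named genes. Narrow clusters were not particular to these genes, as the median widest cluster of the other CC ligand genes was 6 bp. These are counts over a catalogue and were not tested. The members were also chosen with earlier results of these data known. How wide a cluster is called may depend on the number of tags behind it, and that was not tested because the values were not used.

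Ccl2, Ccl7, Ccl11, Ccl12 and Ccl8 form an array on chromosome 11, in that order and all on the plus strand. From the start of the Ccl2 cluster to the end of the Ccl8 cluster the array measured 79.6 kb, and the 6 clusters of these 5 genes were the only clusters inside it on either strand. Ccl7 lay 10.1 kb, Ccl11 22.2 kb, the first Ccl12 cluster 66.2 kb and Ccl8 79.5 kb from the start of the Ccl2 cluster. The widest empty stretch, of 43.9 kb, separated Ccl11 from Ccl12. Before the array the nearest cluster ended 1.23 Mb away. After it came a cluster of 2 bp with no gene, on the minus strand 24.3 kb beyond Ccl8, and then the cluster of Ccl1, a CCR8 ligand, on the minus strand. A window of the array's length laid from the first cluster of each named gene held a median of 7 clusters, with quartiles of 3 and 14. The 6 clusters of the array lie within these quartiles, and all belong to chemokine genes.

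**Figure D3:**
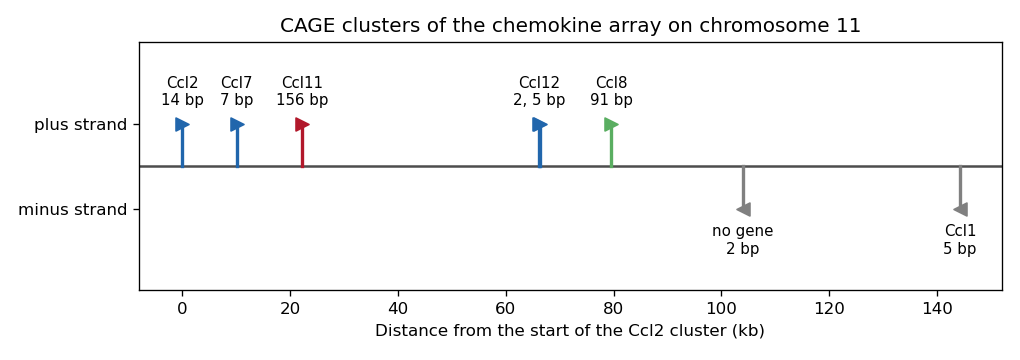
Clusters by distance in kb from the start of the Ccl2 cluster, drawn above the line for the plus strand and below it for the minus strand, with spans in bp. The 5 member genes are on the plus strand within 79.6 kb, and Ccl1 and the cluster with no gene are on the minus strand.

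The distances between these clusters were compared with those between annotated transcript starts of GENCODE mouse release 21. That annotation is on GRCm38 and the clusters are on mm9, so only distances within each build were set side by side, and no coordinate was converted. The lower edge of the Ccl2 cluster was set on the annotated Ccl2 start, and that placement was not tested. A start elsewhere in that cluster of 14 bp would move the transcript starts below further along. It could put those of Ccl7 and Ccl8 past their clusters. Measured from Ccl2 in this way, the Ccl7 transcript starts 10141 bp away, 3 bp into the cluster that spans 10138 to 10145 bp. The Ccl11 transcript starts at 22252 bp, 52 bp into its cluster of 156 bp. The Ccl12 transcript starts at 66274 bp, 1 bp past the wider of its clusters and 22 bp past the narrower. The Ccl8 transcript starts at 79614 bp, 81 bp into its cluster of 91 bp. The clusters of Ccl7, Ccl11 and Ccl8 thus spanned the annotated start by this measure, and most of the Ccl8 cluster lay upstream of it. Measured so, the Ccl8 cluster also reaches over the bases where the TATA box of Ccl8 is printed above.

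Ccl27a was the only one of the genes with clusters far apart. Its downstream cluster of 12 bp and its middle cluster of 32 bp were separated by 3297 bp, and the middle and upstream clusters by 572 bp. A cluster of 5 bp with no gene lay between the middle and upstream clusters on the opposite strand, from 41720570 to 41720575, 140 bp from the middle cluster. Il11ra1, which encodes a receptor chain for interleukin 11, runs toward Ccl27a on the plus strand and had 7 clusters. The nearest of them ended 2313 bp from the downstream Ccl27a cluster.

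With the 5′ edge of the downstream cluster set on the downstream RefSeq start, 7 of the 19 annotated Ccl27a transcripts began within 20 bp of the upstream cluster, which then spans 3901 to 3949 bp upstream. Of these 7, 4 are protein-coding. The middle cluster then spans 3297 to 3329 bp upstream, and 1 transcript, of the retained intron type, begins there at 3325 bp. The downstream start has 2 protein-coding transcripts within 20 bp, which follows in part from placing the cluster there. By this measure the RefSeq starts of promoters 2 and 3 both lie within 20 bp of the upstream cluster. No printed promoter starts at the middle cluster. Ccl27a is known to give a secreted chemokine from the downstream start and, from the upstream start, a form that lacks the signal peptide and is found in the nucleus.

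**Figure D4:**
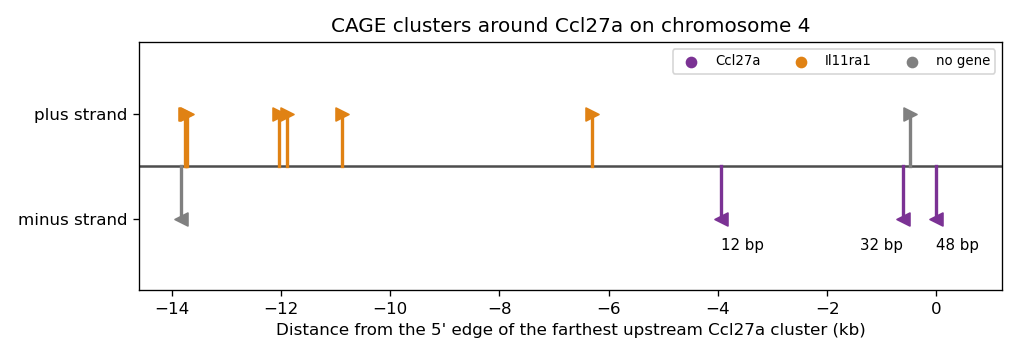
Clusters around Ccl27a by distance in kb from the 5′ edge of its upstream cluster, plus strand above the line and minus strand below, with spans in bp for Ccl27a. The 3 Ccl27a clusters are on the minus strand and the 7 Il11ra1 clusters on the plus strand.

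Near-identical copies make the Ccl27a assignment uncertain. The first 25 bases of at least 1 protein-coding Ccl27a transcript were found unchanged in transcripts of 3 other genes, Ccl27b, Gm13306 and Gm20878. Among the transcripts within 20 bp of a cluster, this held for 2 of 2 at the downstream cluster, 1 of 1 at the middle cluster and 4 of 7 at the upstream cluster. Ccl27b itself had 1 cluster of 6 bp, chromosome 4 plus strand, 42668778 to 42668784. For Ccl19 the first 25 bases occurred in 1 other gene, Gm2564, and the first 50 in none. For the other 8 genes, neither the first 25 nor the first 50 bases of a protein-coding transcript occurred in a transcript of another gene. How the authors treated reads that map to several places is not given in the sources used here.

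Ccl19 was absent under its symbol and under its older names. In the RefSeq gene order it lies next to Ccl21a, a second CCR7 ligand, which had 1 cluster of 2 bp from 42787523 to 42787525 on the minus strand of chromosome 4. On the other side the nearest gene with a cluster was Ccl27b. The 119 kb between the clusters of Ccl27b and Ccl21a held no cluster on either strand, named or not. An unnamed cluster at the Ccl19 start is therefore not listed either. Because the rule for calling a cluster is not stated, this does not show that Ccl19 was not transcribed.

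The single-cluster genes outside the array stood alone. The nearest cluster to Ccl20 was 55.8 kb away and had no gene. The nearest to Ccl24 was 27.7 kb away and belonged to Hip1, and the nearest to Ccl17 was 22.2 kb away and belonged to Ciapin1. With a limit of 10 kb, 8 of the 9 genes had no cluster of another gene or of no gene nearby, against 36.4% of other named genes. With a limit of 20 kb only Ccl17, Ccl20 and Ccl24 remained, 3 of 9, against 24.4% of other named genes, as the neighbours within the array are 10.1 to 13.3 kb apart except across the gap between Ccl11 and Ccl12.

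Start sites of the receptor genes were looked up next to those of the ligands. Of 10 pairs of a ligand and its main receptor, both genes had a cluster in 5: Ccl11 and Ccl24 with Ccr3, and Ccl2, Ccl7 and Ccl12 with Ccr2. These pairs share receptors, so they are not separate cases. Of the 7 receptor genes in the 10 pairs, 3 had a cluster, against 63.3% of other protein-coding genes, and this was not tested. The Ccl11 cluster spanned 156 bp, and the single cluster of its receptor gene Ccr3 spanned 4 bp, chromosome 9 plus strand, 123936847 to 123936851. Ccr2 had 4 clusters, the widest of 6 bp from 124016885 to 124016891. In 4 pairs only the ligand was listed: Ccl8 without Ccr8, Ccl17 without Ccr4, Ccl20 without Ccr6 and Ccl27a without Ccr10. In the last pair only the receptor was listed, as Ccr7 had a cluster of 4 bp and Ccl19 had none.

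**Figure D5:**
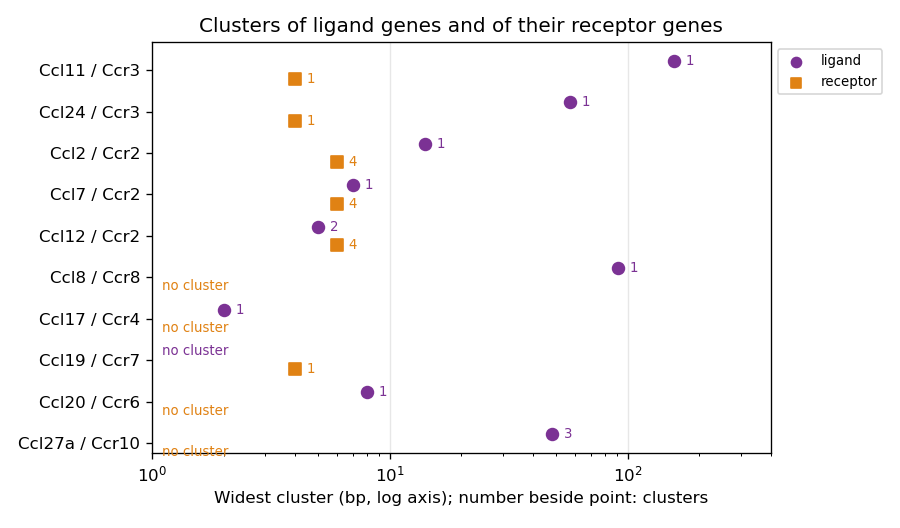
Widest cluster in bp on a log axis for each ligand (circles) and its receptor (squares), with the number of clusters beside each point. Ccr3 at 4 bp and Ccr2 at 6 bp are the receptors with a cluster beside a listed ligand, and Ccr8, Ccr4, Ccr6 and Ccr10 have none.

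Of 9 CC receptor genes looked up, 5 had a cluster, where 63.3% of other protein-coding genes had one. Beside those named above, the listed CC receptor genes were Ccr1 with 2 clusters, the wider of 88 bp, and Ccr9 with 1 of 127 bp. The 5 atypical receptor genes, most of which bind chemokines without signalling through G proteins, all had a cluster, 4 of them under an older symbol. The widest were 169 bp for Ackr3 (listed as Cxcr7), 106 bp for Ackr2 (Ccbp2), a scavenger of inflammatory CC chemokines, and 56 bp for Ackr4 (Ccrl1), a scavenger of CCL19 and CCL21. Ackr1 (Darc), a chemokine transporter of venules, had 2 clusters of at most 3 bp, and Ccrl2 had 1 of 2 bp. Both receptor lists are short, and neither was tested against the share over other genes.

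Of the 14 other CC ligand genes, 9 had a cluster, with a median widest cluster of 6 bp, where 63.3% of other protein-coding genes had one. Ccl6 had the widest, at 187 bp, followed by Ccl25 at 76 bp and Ccl4 at 31 bp. Ccl1, Ccl3, Ccl5, Ccl9, Ccl21a and Ccl27b had clusters of 2 to 6 bp. Ccl21b, Ccl21c, Ccl22, Ccl26 and Ccl28 had none, so Ccl17 was listed while Ccl22, the other CCR4 ligand, was not. The first 25 and the first 50 bases of Ccl21b occurred unchanged in transcripts of 4 other genes, Ccl21a among them. Those bases do not tell Ccl21b from Ccl21a. Ccl21c had no protein-coding transcript to compare. Ccl5, Ccl9, Ccl6, Ccl3 and Ccl4 form a second group on chromosome 11, with 7 clusters over 132 kb that begin 1.42 Mb beyond Ccl8.

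Defining genes of cell types were looked up to check the labelled tissue. All 4 epidermal keratin genes and all 4 fibroblast genes had clusters, the widest of each gene between 140 and 191 bp and between 93 and 219 bp. All 4 macrophage genes had a cluster, with Adgre1 listed as Emr1 at 28 bp and the others between 112 and 151 bp. So did the 3 mast cell genes and the 2 endothelial genes, while 2 of 4 T cell genes did (Cd3e and Cd3d, without Cd4 and Cd8a). Of the 4 eosinophil genes only Ccr3 had a cluster, and Siglecf, Epx and Prg2 had none. Lists of 2 to 4 genes are short, the share over other protein-coding genes was 63.3%, and the difference was not tested.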

How the data were processed

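CAGE libraries were made from total RNA of facial skin of 8 mice, per the labels' protocols. BWA, HISAT2 and the build mm9 are named, with no version, per the submitters' processing notes. The deposited table gives each cluster's position and strand, a gene symbol where there is one, and values in 8 columns. Their names match no label of any sample, so these 8 columns were left out. The planned fits, and with them depths, were not analysed here. How tags were joined into clusters is not given in the sources used here. Coordinates are as deposited, and span is end minus start. Rows at 1 position made 1 cluster. Symbols and gene order came from RefSeq GRCm38.p6, promoters from RefSeq, and transcripts from GENCODE mouse release 21. The motif search was tested on simulated sequences with a planted TATA box, and a function for gaps between neighbours on a small made set of intervals (Python 3.11.15, pandas 2.3.3). The other motifs were not tested in this way. All 10 members are named by rule, other genes as members of lists or as neighbours. Members and lists were chosen with earlier results of these data known. A part of the list of receptor genes is not reported here.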

Additional observations from a re-analysis of the deposited data

How the results depend on the processing

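No paired analysis was possible because no label connects a column of values to a mouse. Other settings for the comparison of the groups (tool, normalization, filter, pseudocount, replicates left out) were not run for the same reason. The count of 9 genes with a cluster was 9 with older symbols and 8 with clusters of at least 5 bp, but 4 with clusters of at least 20 bp. The 12 clusters were 12 as rows and 11 with neighbours joined within 100 bp, but 7 with clusters of at least 10 bp. The 5 genes with a cluster of at least 10 bp became 8 at 5 bp and 4 at 20 bp. The shares of other protein-coding genes at 5 bp and at 20 bp were not computed. The counts at those spans therefore do not show whether the chemokine genes were listed more or less often than other genes. The widest span was 156 bp with and without joining. The limit for neighbouring clusters was chosen after seeing the data, and 8 genes stood alone at 5 kb and at 10 kb and 3 at 20 kb. The shares of other named genes were 47.2% at 5 kb, 36.4% at 10 kb and 24.4% at 20 kb. The gap between Ccl2 and Ccl7, of 10124 bp, lay just past the limit of 10 kb.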
